A study of Homo sapiens with 24 samples.

Results

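The transforming growth factor-beta (TGF-beta) pathway was read through 9 genes, which are the ligands TGFB1 and TGFB2, the receptors TGFBR1 and TGFBR2, the signal carriers SMAD2, SMAD3 and SMAD4, the inhibitor SMAD7 and the target gene TGFBI. They were taken by name, as all non-control spots of 24 arrays that carry 1 of these gene names. This rule uses no measured value, but the genes were chosen with earlier results of these data known. The 9 genes had 12 probes. They stood among 19397 named genes on the first array design and 20311 on the second.

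The arrays were two-colour Agilent expression arrays, and each compared treated with control RNA of 1 established human cancer cell line. The lines were PC3, DU145 and LNCap from prostate cancer, 786O and A498 from renal cell carcinoma, and FaDu and SAS from head and neck squamous cell carcinoma. The first design held 16 arrays on slides 1 and 2: genistein (PC3, DU145), si-CAV2 (A498, 786O), miR-145 (PC3, DU145, LNCap), miR-375 (FaDu), si-LAMB3 (FaDu, SAS), wogonin (SAS, FaDu), miR-23b, miR-24 and miR-27b (PC3) and miR-29a (SAS). The second design held 8 arrays on slide 3: miR-143 (DU145, PC3), si-GOLM1 (DU145, PC3), miR-27b (786O, A498) and CXCL10 at 12 h and 24 h (786O). Genistein and wogonin are plant flavonoids, CXCL10 is a chemokine, the siRNAs target caveolin 2, laminin beta 3 and the Golgi membrane protein GOLM1, and the miRNAs were given by transfection with a lipid reagent. Controls were a control siRNA or control miRNA for the transfections, DMSO for wogonin, and cells labelled as untreated for genistein and CXCL10, although the study's methods name a vehicle for genistein. Each line and treatment had 1 array, so no ratio had a replicate of its own, and treated RNA was always Cy5 and control RNA always Cy3, so a dye effect cannot be told apart from a treatment effect within an array.

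TGF-beta ligands are secreted in a latent form, bind TGFBR2 once they are released, and bring it together with TGFBR1. TGFBR1 then phosphorylates SMAD2 and SMAD3, which join SMAD4, enter the nucleus and switch genes such as TGFBI and SMAD7 on or off, and SMAD7 in turn blocks the receptor. In epithelial cells the pathway is known for slowing growth, and in advanced carcinomas for promoting invasion and the change toward a mesenchymal form.

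Of the treatments, 7 were miRNAs, which lower the mRNAs that pair with their seed (bases 2 to 8). Their mature sequences are given because each seed sets which mRNAs a miRNA can pair with, and the seed is in capitals. The sequences are those of RefSeq (GRCh38.p14), 7 of 7 were matched, and the arm shown is the one usually meant by the plain name, since the labels give no arm.
hsa-miR-23b-3p: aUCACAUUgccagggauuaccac
hsa-miR-24-3p: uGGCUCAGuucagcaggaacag
hsa-miR-27b-3p: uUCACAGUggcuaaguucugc
hsa-miR-29a-3p: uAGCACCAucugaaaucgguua
hsa-miR-143-3p: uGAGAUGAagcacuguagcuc
hsa-miR-145-5p: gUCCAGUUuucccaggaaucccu
hsa-miR-375-3p: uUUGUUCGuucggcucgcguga
No seed was shared, so the 7 miRNAs form 7 seed groups. The closest pair was miR-23b and miR-27b, whose seeds hold the same base at 6 of 7 positions. The genes of miR-23b, miR-27b and 1 copy of miR-24 lie on chromosome 9.

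Each array had 58717 non-control spots, of which 419 to 614 were flagged as outliers and 0 were saturated. The share of spots well above background was 53.2% to 67.6% in Cy3 and 54.2% to 68.9% in Cy5. The targeted genes were lower on their own arrays, with log2 ratios of -3.80 and -3.20 for CAV2, -3.02 and -4.15 for GOLM1 and -2.50 and -0.89 for LAMB3, the last within the range of the other arrays (down to -2.11). In the control channels, the renal markers PAX8 and PAX2 were well above background in all 786O and A498 samples and the squamous keratins KRT5 and KRT14 in all FaDu and SAS samples. PAX8 was also above background in 7 of 7 PC3 controls (at most -2.31) and 3 of 3 of FaDu, and KRT14 in 4 of 4 of DU145, in LNCap and in 2 of 7 of PC3, both on the second design (up to 0.20). The prostate marker FOLH1 was above background in 4 of 7 PC3 controls and ran from -6.66 to -0.31 among them, so PC3 controls differed between arrays, and the part of that in the contrasts with PC3 was not tested. KLK3, another prostate marker, had a level of 2.22 in LNCap and of at most -3.79 in PC3 and -3.50 in DU145, on a scale explained with the control levels. At such low levels it was above background in 4 of 4 DU145, 1 of 7 PC3, 2 of 4 786O and 1 of 2 A498 controls. The control channels of the miR-23b, miR-24 and miR-27b arrays of PC3 correlated at 0.9967 to 0.9970 over probes, against 0.930 to 0.991 for the other 19 pairs of 1 line, so these 3 arrays may share control RNA, which the labels do not state.

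On build hg19, the probe of TGFB2 lies on chromosome 1 at 218614784 to 218614843, that of TGFBR1 on chromosome 9 at 101916322 to 101916381, and that of SMAD3 on chromosome 15 at 67487391 to 67487450. TGFBR2 had a bright probe on chromosome 3 at 30735163 to 30735222 and a dim probe at 30703057 to 30703116. SMAD2 and SMAD7 were read on the reverse strand of chromosome 18, at 45360188 to 45360247 and 46446782 to 46446841. SMAD4 had 3 probes on chromosome 18, at 48605060 to 48605119, 48611330 to 48611389 and 48611270 to 48611329, of which the last 2 carry the gene's name only on slide 2 and on the second design. TGFBI was read on chromosome 5 at 135399343 to 135399402, and TGFB1 on the reverse strand of chromosome 19, where the file gives an interval from 41838142 to 41847802 that is far longer than a probe. Values of TGFBR2 and SMAD4 are those of the bright TGFBR2 probe and of the first SMAD4 probe unless another is named.

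Untreated and control-transfected cells were compared first, by the level of each probe in the Cy3 channel, given as log2 signal minus the array's 75th percentile. A level of 0 is therefore the 75th percentile of that array, and levels of different probes or designs are not comparable. Limma was fitted to the control channels of each design with slide as a term on the first, adjusted p-values are Benjamini-Hochberg values over all probes of the design, and a call is an adjusted p below 0.05. The spread between control channels of 1 line includes the kind of control (untreated, DMSO, control siRNA or control miRNA), and the labels do not say whether they come from separate cultures. Where a level is lower in a line, fewer expressing cells and less RNA per cell cannot be told apart in such bulk RNA.

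**Figure D1:**
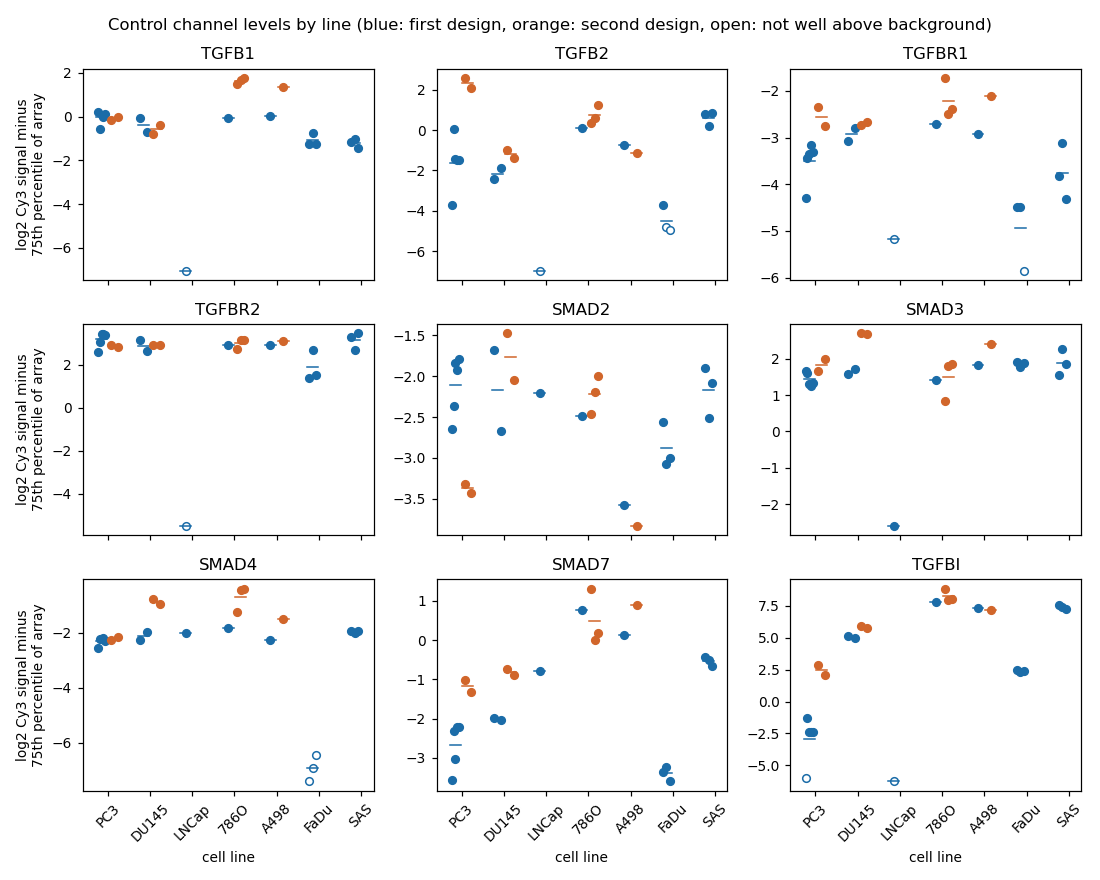
Control channel level of each gene (vertical axis, log2 Cy3 signal minus the array's 75th percentile) by cell line (horizontal axis), with 1 point per array, short lines for means, blue for the first design, orange for the second and open points for values not well above background. TGFBI spans the widest range, SMAD4 is not above background on the 3 FaDu arrays, and 5 genes are not above background in LNCap.

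TGFBI, a secreted matrix protein that TGF-beta switches on, separated the lines more widely than any other of the 9 genes. On the first design its level was 7.76 in 786O (n = 1), 7.38 ± 0.18 in SAS (SD, n = 3), 7.32 in A498 (n = 1), 5.05 ± 0.07 in DU145 (n = 2), 2.37 ± 0.09 in FaDu (n = 3), -2.91 ± 1.79 in PC3 (n = 5) and -6.23 in LNCap, where it was not well above background. The top 3 lines lay close together and were not tested against each other, since 786O and A498 had 1 array each. DU145 lay above PC3 by 8.42 (SE 1.01, limma adjusted p = 0.000161), FaDu above PC3 by 5.23 (SE 0.78, limma adjusted p = 0.000311), SAS above PC3 by 9.99 (limma adjusted p = 5.91e-06) and SAS above FaDu by 4.76 (limma adjusted p = 0.00368). The differences from PC3 are as measured and not exact, since only 4 of its 5 controls were above background. The order on the second design was 786O at 8.28 ± 0.49 (n = 3), A498 at 7.13 (n = 1), DU145 at 5.84 ± 0.10 (n = 2) and PC3 at 2.49 ± 0.53 (n = 2). Each of the 3 tested steps was called there, 786O over DU145 by 2.44, 786O over PC3 by 5.79 and DU145 over PC3 by 3.35 (limma adjusted p = 0.00840, 0.000292 and 0.00517).

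PC3 therefore stood lowest for TGFBI of the lines in which it was detected, on both designs. The 5 PC3 controls of the first design were -6.01 (genistein array, not above background), -1.31 (miR-145), -2.42 (miR-23b), -2.41 (miR-24) and -2.41 (miR-27b). The 2 of the second design were 2.87 and 2.11. Since DU145 controls of the first design lie only on slide 1, DU145 minus PC3 was also taken within that slide. It was 8.71 as measured, with the genistein control among the PC3 values, at a limma adjusted p of 0.0556.

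The ligands differed between lines too. TGFB1 had levels between -1.43 and 0.21 in PC3, DU145, FaDu, SAS, 786O and A498 on the first design. PC3 (-0.03 ± 0.30, n = 5) lay above FaDu (-1.07 ± 0.30, n = 3) and SAS (-1.20 ± 0.21, n = 3), by 1.06 and 1.27 in the limma fit (adjusted p = 0.00326 and 0.00185). FaDu and SAS overlapped, as did PC3 and DU145 (-0.37 ± 0.45, n = 2). In the second design's controls 786O (1.63 ± 0.13, n = 3) lay above DU145 by 2.21 and above PC3 by 1.71 (limma adjusted p = 0.00180 and 0.00398). In LNCap TGFB1 was not well above background, at least 43.3-fold below PC3.

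TGFB2 was highest in SAS on the first design, at 0.61 ± 0.36 (n = 3). 786O followed at 0.12 and A498 at -0.76 (n = 1 each), then PC3 at -1.62 ± 1.33 (n = 5), DU145 at -2.15 ± 0.37 (n = 2) and FaDu at -4.49 ± 0.67, where 1 of 3 arrays was above background. PC3 and DU145 overlapped. As measured, FaDu lay below PC3 by 2.86 and below SAS by 5.16 (limma adjusted p = 0.00489 and 0.000785) and these are not exact differences, since 2 of 3 FaDu values were not above background. PC3 lay below SAS by 2.30 (limma adjusted p = 0.0238). Within PC3 the level ran from -3.69 on the genistein array to 0.03 on the miR-145 array, a wider spread than in any other line. On the second design PC3 was the highest line for TGFB2, at 2.31 ± 0.36 (n = 2), above 786O by 1.58 and above DU145 by 3.50 (limma adjusted p = 0.0252 and 0.00358), and 786O lay above DU145 by 1.92 (limma adjusted p = 0.0145).

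TGFBR2, the receptor that binds the ligand, had means of 3.18 in PC3, 3.14 in SAS, 2.92 in 786O, 2.90 in A498, 2.89 in DU145 and 1.88 in FaDu on the first design. FaDu lay below PC3 by 1.34, below DU145 by 1.45 and below SAS by 1.04 (limma adjusted p = 0.00277, 0.0233 and 0.0425), although its range (1.39 to 2.70) overlapped all 3. All levels of the bright TGFBR2 probe on the second design lay between 2.76 and 3.15 and no contrast was called. The dim probe differed there, at -5.45 ± 1.83 in 786O (n = 3, 1 above background), -2.89 in DU145 and -2.97 in PC3 (n = 2 each). The values of 786O overlapped with those of neither other line. In LNCap TGFBR2 was not above background, at least 400.4-fold below PC3 and at least 163-fold below FaDu.

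TGFBR1, the kinase partner, lay below the 75th percentile in every line. Its mean on the first design was -2.70 in 786O, -2.93 in both A498 and DU145, -3.51 in PC3, -3.75 in SAS and -4.94 in FaDu, where 2 of 3 arrays were above background. FaDu lay below DU145 by 2.10 and below PC3 by 1.44 (limma adjusted p = 0.0199 and 0.0125), as measured with 1 FaDu value below background, and PC3 and SAS overlapped. With the PC3 controls of miR-23b, miR-24 and miR-27b averaged, neither was called (limma adjusted p = 0.0636 and 0.0926). LNCap was not above background, at least 3.17-fold below PC3.

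Among the SMADs, SMAD4 stood out in FaDu. The probe was not well above background on any of the 3 FaDu arrays, at -7.39, -6.91 and -6.42, while the other lines lay between -2.54 and -1.83 on the first design. FaDu was at least 8.41-fold below PC3, at least 9.49-fold below DU145 and at least 10.6-fold below SAS. Limma used the levels as measured, by which FaDu was lower by 4.64, 5.02 and 4.83 (adjusted p = 1.90e-08, 4.77e-07 and 1.28e-07). These are not exact differences, since no FaDu value was above background. The 2 further SMAD4 probes were also not above background on both FaDu arrays of slide 2, at least 59.9-fold and 93.7-fold below PC3. On the FaDu array of slide 1, where these 2 carry another name, the one at 48611330 was above background in the control channel, at -3.84, and the other was not. SMAD4 on the second design, read by its brightest probe, was 1.43 higher in DU145 and 1.68 higher in 786O than in PC3 (limma adjusted p = 0.0432 and 0.0143).

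SMAD7, the inhibitor that the pathway switches on, was highest in the renal lines and SAS. On the first design it was 0.77 in 786O, 0.12 in A498, -0.53 ± 0.13 in SAS (n = 3), -0.79 in LNCap, -2.01 ± 0.04 in DU145 (n = 2), -2.67 ± 0.60 in PC3 (n = 5) and -3.39 ± 0.19 in FaDu (n = 3). SAS lay above PC3 by 2.03 and above FaDu by 2.77 (limma adjusted p = 0.000457 and 0.000235), and DU145 above FaDu by 1.57 (limma adjusted p = 0.0198), while PC3 and FaDu overlapped. Of the second design's lines, 786O lay above PC3 by 1.67 (limma adjusted p = 0.0405).

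The receptor SMADs were more even on the first design, apart from SMAD3 in LNCap. SMAD2 had means from -2.11 in PC3 to -3.57 in A498 on the first design, and FaDu (-2.88) lay below PC3 by 0.79 (limma adjusted p = 0.0450). On the second design PC3 (-3.37) lay below DU145 by 1.61 and below 786O by 1.16 (limma adjusted p = 0.0181 and 0.0289). SMAD3 had first-design means from 1.41 in 786O to 1.89 in SAS without LNCap, and PC3 lay below SAS by 0.56 (limma adjusted p = 0.0336). LNCap, at -2.60, was the outlying line with SMAD3 still above background. SMAD3 means on the second design ran from 1.50 in 786O to 2.69 in DU145, and no contrast was called.

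By contrast of lines, limma called 4 of 9 genes between DU145 and FaDu, where 22.5% of all probes were called, 1 between DU145 and PC3 (24.9%) and 0 between DU145 and SAS (17.5%). Between DU145 and SAS 3 genes had an unadjusted p below 0.05. It called 7 of 9 between FaDu and PC3 (41.9%), 5 between FaDu and SAS (22.2%) and 5 between PC3 and SAS (39.2%). On the second design it called 3 between 786O and DU145 (20.5%), 6 between 786O and PC3 (22%) and 4 between DU145 and PC3 (14.7%). Of these 35 calls, 14 were kept under every alternative, 16 were lost when some 1 array was left out, and 5 were lost only under other alternatives. Kept throughout were the 3 of SMAD4 in FaDu, those of SMAD7 and TGFBI between SAS and both FaDu and PC3, TGFB1 between PC3 and SAS and between 786O and both DU145 and PC3, TGFB2 between FaDu and SAS, and on the second design TGFBI of PC3 against both lines and TGFB2 between DU145 and PC3. Lost at least once without 1 array were those of SMAD2, SMAD3 and TGFBR1, TGFBR2 of FaDu against DU145 and SAS, SMAD4 and SMAD7 on the second design, SMAD7 between DU145 and FaDu, TGFB2 of 786O and of PC3 against SAS, and TGFBI between 786O and DU145. With the 3 PC3 controls that may share RNA averaged, 7 were lost. Of PC3 these were TGFBR1 and SMAD2 against FaDu (limma adjusted p = 0.0926 and 0.237). TGFB2 and SMAD3 of PC3 against SAS were lost too (limma adjusted p = 0.0920 and 0.230). The rest were TGFBR1 and TGFBR2 between DU145 and FaDu, and TGFBR2 between FaDu and SAS.

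The treatments were compared through the log2 ratio of treated over control RNA on each array. The scanner software's own error of 1 ratio had medians from 0.21 to 0.26 by gene, and spots of 1 probe differed by a median SD of 0.03 to 0.20. A size call was a log2 ratio past 0.5 in the same direction on every array of a treatment on 1 design, which is not a test. Limma gave the test across lines, with 1 coefficient per treatment and the lines as the replicates, except for CXCL10, where the replicates of both the size rule and limma are the 12 h and 24 h arrays of 786O alone.

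**Figure D2:**
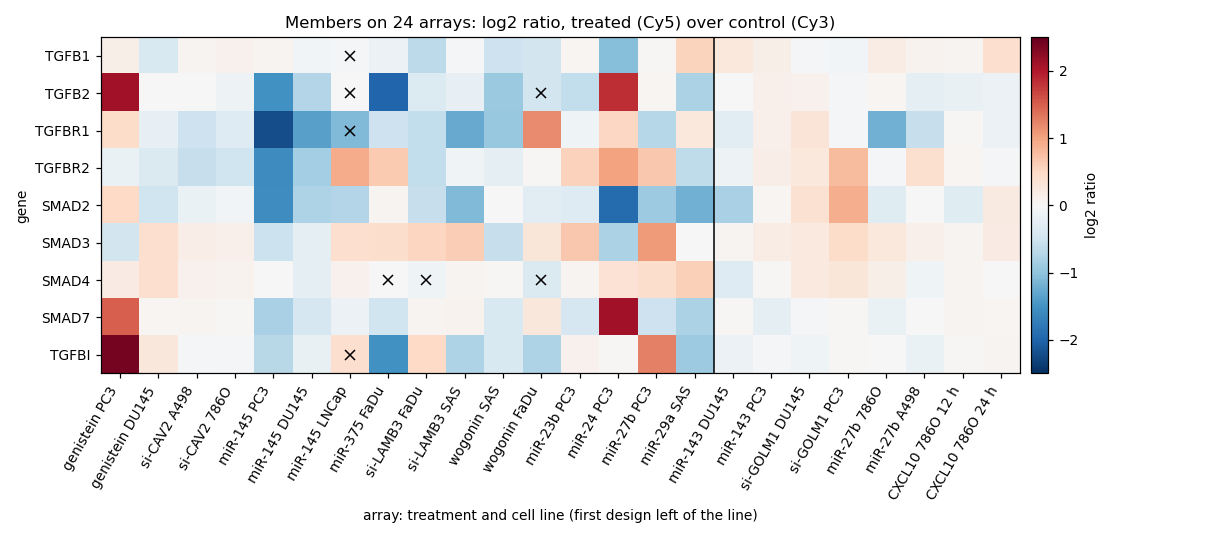
Log2 ratio of treated over control RNA (colour, red for higher in treated cells) for the 9 genes (rows) on the 24 arrays (columns), with a cross where neither channel was well above background and a line between the designs. TGFBR1 and SMAD2 are blue on most arrays of the first design, and the deepest red cells are TGFBI and TGFB2 under genistein in PC3 and SMAD7 and TGFB2 under miR-24.

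Over the 24 arrays TGFBR1 was past 0.5 most often, lower on 11 and higher on 2, and SMAD2 was lower on 9 and higher on 1. TGFBR2 was evenly split, at 6 lower and 6 higher. TGFB2 was lower on 6 and higher on 2, TGFBI lower on 5 and higher on 3, SMAD7 lower on 3 and higher on 2, SMAD3 lower on 3 and higher on 4 and TGFB1 lower on 3 and higher on 1. SMAD4, by its first probe, was past 0.5 under miR-29a in SAS (0.60) and on no other array, and there its 2 further probes read 0.33 and 0.11. SMAD2 was low as a rule on the first design, with a mean of -0.60 ± 0.64 (SD, 16 arrays) against 0.02 ± 0.52 on the second (8 arrays), and TGFBR1 had means of -0.47 ± 0.84 and -0.22 ± 0.48. The part of dye in these averages was not tested. Values with the mean of the other treatments subtracted are therefore given beside the miR-145 results of both genes. Under all other treatments the ratios of both genes are given as measured and still hold these averages. Over all 9 genes, the 7 size calls over all lines of a treatment became 3 with that mean subtracted.

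Under miR-145, SMAD2 was lower in all 3 prostate lines and TGFBR1 in PC3 and DU145. TGFBR1 had log2 ratios of -2.22 in PC3 and -1.36 in DU145. In LNCap it was below background in both channels, so the value of -1.11 (SD between spots 1.24) is not a measured change, although the size call and the limma value of TGFBR1 use it. SMAD2 read -1.55 in PC3, -0.77 in DU145 and -0.74 in LNCap, above background on each array. For SMAD2 PC3 was the lowest of the 3, with DU145 and LNCap close together. Of 9 genes these 2 were called by size, against 5.8% of all genes, and SMAD2 alone where a probe had to be above background on every array of the treatment. Limma called SMAD2 alone, which fell by 1.02 on the log2 scale (SE 0.23, adjusted p = 0.0430), with 4.7% of all probes called, and TGFBR1 at -1.56 (SE 0.37) had an adjusted p of 0.0544, and -1.79 without LNCap (adjusted p = 0.102). The SMAD2 call was lost without any 1 of the miR-145, si-CAV2, si-LAMB3 or wogonin arrays (adjusted p = 0.0598 to 0.283), and without either wogonin array limma called TGFBR1 instead (-1.56, adjusted p = 0.0197). With the other treatments' mean subtracted SMAD2 was -0.52 (adjusted p = 0.264) and TGFBR1 -1.35 (adjusted p = 0.109).

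**Figure D3:**
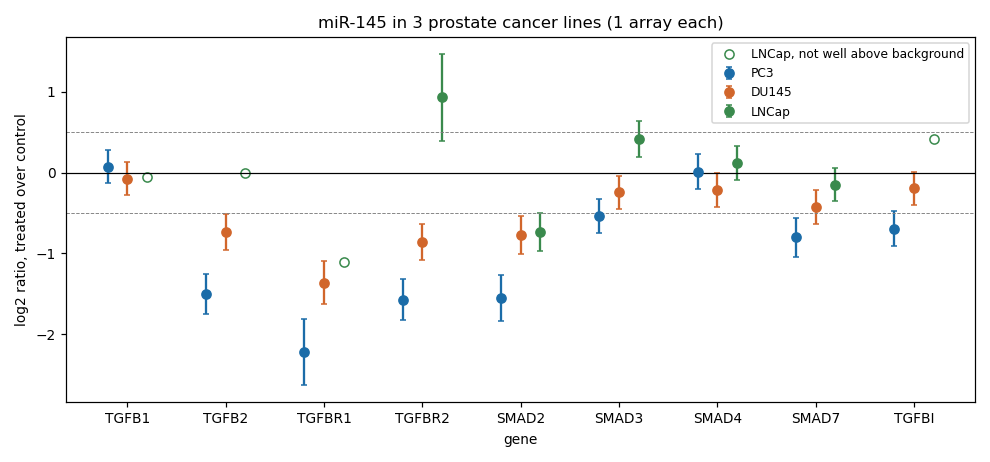
Log2 ratio of miR-145 over control (vertical axis) for the 9 genes (horizontal axis) in PC3 (blue), DU145 (orange) and LNCap (green), 1 array each, with bars for the scanner software's error of 1 ratio, dashed lines at 0.5 and -0.5, and open points where neither channel was well above background. SMAD2 lies below the lower dashed line in all 3 lines and TGFBR1 in PC3 and DU145, with an open point for LNCap, and TGFBR2 lies below it in PC3 and DU145 and above the upper line in LNCap.

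The receptor TGFBR2 and the ligand TGFB2 were lower under miR-145 in the 2 lines that expressed them. TGFBR2 read -1.57 in PC3 and -0.86 in DU145, and its dim probe -1.33 and -0.81. In LNCap, whose control channel was not above background, TGFBR2 was at least 1.86-fold higher. Without LNCap, limma gave -1.21 for TGFBR2 (SE 0.21, adjusted p = 0.0313), against -0.50 (adjusted p = 0.513) with it. TGFB2 read -1.51 in PC3 and -0.74 in DU145 and was not above background in LNCap. SMAD7 read -0.80 in PC3, -0.43 in DU145 and -0.15 in LNCap, and SMAD3 -0.54, -0.25 and 0.42. TGFB1, not above background in LNCap, and the first SMAD4 probe lay between -0.22 and 0.12. The SMAD4 probes disagreed, since those at 48611330 and 48611270, which carry another name on this slide, read -1.02 and -1.25 in PC3, -0.54 and -0.62 in DU145 and -0.03 and -0.19 in LNCap (limma -0.53 and -0.69, adjusted p = 0.155 and 0.263). TGFBI read -0.69 in PC3 and -0.20 in DU145. In PC3, then, 7 of 9 genes were lower by more than 0.5, in DU145 4 of 9. The share of all genes was taken over all lines together (5.8%) and not on each array. These counts on single arrays therefore have no background to be read against.

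The 3 miRNAs of which at least 1 gene copy lies together on chromosome 9 were each given to PC3, and their readouts for the 9 genes are set side by side. Each had 1 array on the first design and possibly shared control RNA, so the values are a description with no test.

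**Figure D4:**
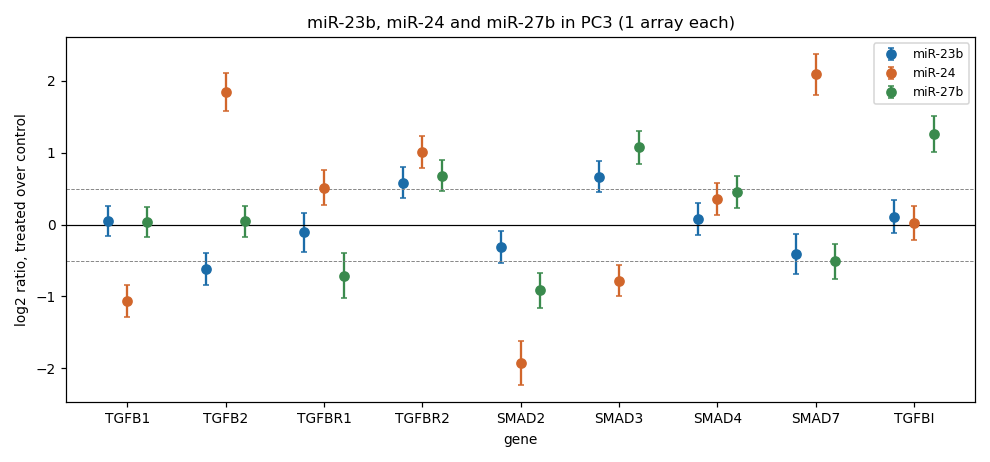
Log2 ratio of miRNA over control in PC3 (vertical axis) for the 9 genes (horizontal axis) under miR-23b (blue), miR-24 (orange) and miR-27b (green), 1 array each, with bars for the scanner software's error and dashed lines at 0.5 and -0.5. SMAD7, TGFB2, TGFB1 and SMAD3 under miR-24 lie apart from both other miRNAs.

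miR-24 had the widest readout. SMAD7 was higher by 2.09 (software error 0.28) and TGFB2 by 1.85 (0.27), while SMAD2 read -1.93 (0.30) and TGFB1 -1.06 (0.23). TGFBR2 read 1.01 with its bright probe and -0.02 with its dim one. SMAD3 read -0.78, TGFBR1 0.52 and TGFBI 0.02. For SMAD4 the probes disagreed, at 0.36 for the first and -1.01 and -1.003 for the 2 probes that lie together further along the gene. So 7 of 9 genes were past 0.5, 4 higher and 3 lower, on an array where 53.9% of all genes were.

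Under miR-27b in PC3, TGFBI was higher by 1.26 and SMAD3 by 1.07, TGFBR2 read 0.68, and SMAD2 read -0.92, TGFBR1 -0.71 and SMAD7 -0.51. These 6 of 9 compare with 35.5% of all genes. TGFB1 and TGFB2 both read 0.04. In the renal lines, on the second design, TGFBR1 read -1.20 in 786O and -0.58 in A498 under miR-27b, the 1 gene of 9 called by size there, against 3.15% of all genes. Limma gave TGFBR1 -0.89 (SE 0.19, adjusted p = 0.133) over these 2 lines, with 0 of 9 genes called, 1 at an unadjusted p below 0.05 and 0.403% of probes called. With normexp background correction and loess it was -0.39 at a limma adjusted p of 0.0452. TGFBR1 was thus below -0.5 on all 3 miR-27b arrays, whereas SMAD3 read 1.07, 0.26 and 0.12 and TGFBI 1.26, 0.01 and -0.17 in PC3, 786O and A498.

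miR-23b, whose seed is the closest to that of miR-27b, gave smaller values. SMAD3 was higher by 0.67 and TGFBR2 by 0.58, TGFB2 read -0.61, and the other 6 genes lay between -0.41 and 0.11. This was 3 of 9 genes, on an array where 32.8% of all genes were past 0.5. SMAD3 and, by its bright probe, TGFBR2 were higher under both miR-23b and miR-27b, and under miR-24 SMAD3 was lower and TGFBR2 higher. The dim TGFBR2 probe was above 0.5 on 1 of the 16 arrays of the first design, that of miR-375.

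miR-29a in SAS went with lower values of SMAD2 (-1.21), TGFBI (-0.91), TGFB2 (-0.80), SMAD7 (-0.79) and TGFBR2 (-0.64), and with higher ones of SMAD4 (0.60) and TGFB1 (0.56). That was 7 of 9 genes, against 27.5% of all genes on the array. miR-375 in FaDu went with lower TGFB2 (-1.98, software error 0.43), TGFBI (-1.52) and TGFBR1 (-0.53) and higher TGFBR2 (0.65), 4 of 9 genes against 50.3% of all. The dim TGFBR2 probe was at least 1.67-fold higher there. miR-143 had 0 of 9 genes called by size (2.39% of all genes) and 0 by limma (0.0626% of probes, 0 of 9 at an unadjusted p below 0.05), and its 1 value past 0.5 was SMAD2 at -0.81 in DU145, against 0.06 in PC3.

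By the probe that stands for each gene, genistein had no log2 ratio past 0.5 in DU145 and had some in PC3. TGFBI was at least 2.86-fold higher there, from a control channel that was not above background, TGFB2 was higher by 2.11 (software error 0.30) and SMAD7 by 1.50 (0.27). In DU145 the same genes read 0.27, -0.01 and 0.04, and only the dim TGFBR2 probe was past 0.5 (-0.93). Over both lines that probe had a mean of -0.98 (SE 0.40, limma unadjusted p = 0.0400, adjusted p = 0.170). It was thus lower by more than 0.5 in PC3 too. Its level in that PC3 control was the lowest of 5, at -4.60, and 4 of the 5 were above background. By the probes that stand for the genes, none was called by size, against 13.4% of all genes. Limma called 0 of 9 of them (7.94% of probes), with 2 at an unadjusted p below 0.05, SMAD7 and TGFBI. The genistein ratios of PC3 rest on 1 array, so no test was read for PC3 alone. The control channel of this PC3 array also held the lowest of 5 PC3 levels for TGFBI, TGFB2 and SMAD7, at -6.01, -3.69 and -3.56, and the part of that in the ratios was not tested.

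Under si-LAMB3, TGFBR1 read -0.62 in FaDu and -1.25 in SAS, SMAD2 -0.57 and -1.10, and SMAD3 0.54 and 0.61. These 3 of 9 genes were called by size, against 15.5% of all genes. TGFBR1 and SMAD2 had means of -0.47 and -0.60 over the 16 arrays of this design, and the part of that here was not tested. Limma called 0 of 9 (6.04% of probes), with SMAD2 at an unadjusted p below 0.05 (-0.84, SE 0.28, adjusted p = 0.112). TGFBI was higher in FaDu (0.50) and lower in SAS (-0.78). Of the SMAD4 probes in SAS, the first read 0.08 and the others -0.63 and -0.69, and none was above background in FaDu.

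Wogonin had 0 of 9 genes called by size (10.5% of all genes) and 0 by limma (2.73% of probes), with TGFB1 at an unadjusted p below 0.05 (-0.48, SE 0.18, adjusted p = 0.181). TGFB1 read -0.52 in SAS and -0.45 in FaDu. In SAS, TGFBR1 read -0.94, TGFB2 -0.93 and SMAD3 -0.57. In FaDu TGFBI read -0.77, while TGFBR1 was at least 1.19-fold higher from a control channel below background.

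si-CAV2 left 8 of 9 genes within 0.5 in at least 1 renal line. TGFBR2 read -0.57 in A498 and -0.50 in 786O, the 1 gene called by size (3.19% of all genes), and its dim probe read -0.76 and 0.33, so the probes disagreed in 786O. Limma called 0 of 9, with 0 at an unadjusted p below 0.05 and 0.0846% of probes called. si-GOLM1 had 0 of 9 called by size (2.53% of all genes) and 0 by limma (0.188% of probes). Unadjusted p-values were below 0.05 for TGFBR2, SMAD2 and SMAD3, which read 0.79, 0.91 and 0.47 in PC3 and 0.26, 0.38 and 0.25 in DU145. The dim TGFBR2 probe read at most 0.19 on any array of the second design, so the probes disagreed in PC3. CXCL10 in 786O, with its 2 times in 1 line as replicates, had 0 of 9 called by size (2.04%) or limma (0.209% of probes, 0 at an unadjusted p below 0.05), and its largest value was 0.42 for TGFB1 at 24 h, against 0.07 at 12 h.

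A list of 58 further pathway genes (other ligands, latency proteins, receptors, SMADs, regulators and targets) was read by the same size rule, with 55 of them measured on the first design and 53 on the second. Under genistein 8 were higher and 4 lower in both lines, 21.8% of those measured beside the 13.4% of all genes. Those past 1.0 in both were GDF15, a stress-induced member of the ligand family (3.89 in PC3 and 2.11 in DU145), the cell cycle inhibitor CDKN1A (3.64 and 1.18), ANGPTL4 (1.54 and 1.42), the decoy receptor BAMBI (1.21 and 1.34), collagen COL1A1 (-1.14 and -1.73) and the integrin ITGB8, which activates latent TGF-beta (-2.18 and -2.66). The control channel of CDKN1A in PC3 and the treated channel of ITGB8 in DU145 were not above background. The values 3.64 and -2.66 are therefore not exact, although the size rule and limma use them. Limma called GDF15, CDKN1A, SKIL, SMURF2 and TAGLN higher and ITGB8 and TGFB3 lower, the 7 of 55 to be read against its 7.94% over all probes.

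Under miR-145, 7 pathway genes were higher and 2 lower in all 3 lines (16.4%, beside 5.8% of all genes). Past 1.0 throughout were INHBB, an activin subunit, at -1.87, -1.30 and -1.10 in PC3, DU145 and LNCap, and the urokinase receptor PLAUR at 1.64, 1.13 and 4.83. Limma called BAMBI and SMURF1, both inhibitors of receptor signaling, higher and ZFYVE9, which presents SMADs to the receptor, lower, 3 of 55 beside its 4.7% over all probes. Under si-LAMB3 8 were higher and 3 lower (11 of 55, beside 15.5% of all genes), among them the integrin subunits ITGB6 (1.11 in FaDu and 1.19 in SAS) and ITGAV (-1.17 in both), which pair to release latent TGF-beta, and the target CTGF (1.20 and 3.09). Limma called ITGB6 and ACVR2A higher and ITGAV lower, 3 of 55 beside its 6.04% over all probes. si-CAV2 had 1 higher and 2 lower (5.45%, beside 3.19% of all genes), wogonin 0 and 5 (9.09%, beside 10.5%), miR-27b in the renal lines 1 and 0 (1.89%, beside 3.15%), and miR-143, si-GOLM1 and CXCL10 none.

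On the single arrays, miR-24 had 24 pathway genes higher and 9 lower of 55 (60%, beside 53.9% of all genes), miR-27b in PC3 18 and 11 (52.7%, beside 35.5%) and miR-23b 18 and 5 (41.8%, beside 32.8%). miR-375 had 14 and 18 (58.2%, beside 50.3%) and miR-29a 7 and 13 (36.4%, beside 27.5%). CTGF, a matricellular target of the pathway, was higher under all 3 miRNAs in PC3, at 4.75 for miR-24, 2.43 for miR-23b and 1.997 for miR-27b. These 3 arrays may share control RNA, and the part of that in the ratios was not tested. ANGPTL4 was higher under miR-24 (3.48) and lower under miR-23b (-3.42) and miR-27b (-2.63). The co-receptor TGFBR3 (1.94) and the SMAD inhibitor SKIL (1.79) were among the 24 higher under miR-24, and the 9 lower ones are not named.

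The genes whose ratios ran most like those of each member were found by Pearson's r over the 24 arrays, among 11235 genes above background on all of them, which share arrays, dyes and, for some, control RNA. For TGFB1 they were NICOL1 (0.820), WDTC1 (0.816) and MAF1 (0.789), and for TGFB2 IRS2 (0.886), NANOS1 (0.873) and SIAH1 (0.865). TGFBR1 ran most like PRKD3 (0.802), ELMOD2 (0.748) and MMGT1 (0.747), and TGFBR2 most like PHC3 (0.734), MTPN (0.722) and ZYG11B (0.721). SMAD2 was nearest to CAMSAP1 (0.863), FAM120A (0.827) and IFT22 (0.821), SMAD3 to CAPN2 (0.825), NET1 (0.801) and MAP4K2 (0.796), and SMAD4 to PTPN2 (0.722), SMC6 (0.707) and PPIL3 (0.670). SMAD7 was nearest to PRPSAP1 (0.871), MPPE1 (0.855) and AKR1B1 (0.843), and TGFBI to PROSER2 (0.876), IL20RB (0.848) and KRT83 (0.843).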

How the data were processed

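The authors deposited Agilent Feature Extraction 10.7.3.1 output, with intensity values per spot, corrected for background and dye, and a log ratio on the log10 scale (Cy5 over Cy3). The ratio was multiplied to the log2 scale and Cy3 signal gave levels. The deposited series matrix held the same values (largest difference 0 over 1511424 values). Control and outlier spots were left out and spots of a probe averaged. A probe was above background where 0.5 of its spots were. Probes took the name that all files of a design give, so 2572 of 42405 probes of the first design were unnamed. Probes above background were tested, 27183 and 28752 for ratios and 31342 and 32777 for levels, with limma 3.58.1 (R 4.3.3) and Benjamini-Hochberg adjustment. A gene's brightest probe stood for it. "At least" folds use the array's lowest signal well above background.

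Tested on simulated data of the genistein fit (27183 probes), limma called 63 of 200 at a log2 change of 1 and 166 of 200 at 2, besides 12 unchanged. For control levels of PC3 against DU145 it called 130 of 200 at 2 and 186 of 200 at 4 on the first design (31342 probes) and 40 and 151 on the second (32777 probes). The number of arrays limits precision. The named genes are the 9, the siRNA targets, pathway genes past 1.0 on all arrays of a treatment (of those on single arrays, the ones the text describes) and the 3 most alike in ratio. Pathway genes called by limma were named after their values were seen. The members and lists were chosen with earlier results of these data known. Alternatives were normexp with an offset of 50, median centring, subtraction of other treatments' mean, quantile normalization, no filter, mean over probes, a limit of 1, both designs in 1 fit, leaving out arrays and, chosen after seeing the data, newest names, a filter on every array, single slides and averaged PC3 controls. Seed sites in target mRNAs were not analysed here. A line marker and a pathway gene are not reported here.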

Additional observations from a re-analysis of the deposited data

Results flagged for a closer look

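Among the 5 PC3 control channels of the first design, 5 of the probes looked at held a sample far from the other 4. The array of genistein was the low one for TGFBI (-6.01, a gap of 0.763 of the range), TGFBR1 (-4.30, gap 0.753), SMAD4 (-2.54, gap 0.749) and the dim TGFBR2 probe (-4.60, gap 0.858), and the array of miR-145 was the low one for TGFB1 (-0.56, gap 0.729). Of such groups of samples 10 were looked at, chance flags about 1 in 20, and the probes share these 5 arrays.

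Lines went opposite ways past 0.5 for 3 genes, out of 102 pairs of probe and treatment looked at, and the differences were not tested. TGFBI under si-LAMB3 was higher in FaDu and lower in SAS, a difference of 1.28 on the log2 scale. TGFBR1 under wogonin was higher in FaDu, from a control channel below background, and lower in SAS, a difference of 2.12 as measured and of at least 1.19 with that channel at the array's lowest signal above background. TGFBR2 under miR-145 was higher in LNCap, whose control channel was also below background, than in PC3 by 2.50 and than in DU145 by 1.79 as measured, and by at least 2.46 and 1.75 on the same basis.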

How the results depend on the processing

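The 7 size calls over all lines of a treatment were 2 with normexp and loess, 3 with the mean of other treatments subtracted and 1 at a limit of 1, and 6 to 9 under the other alternatives. The 27 on single arrays were 10 at a limit of 1 and otherwise 19 to 28. The 1 limma call over treatments became 3 with normexp and loess (TGFBR1 under miR-27b, SMAD3 and TGFBR2 under si-GOLM1) and 3 with both designs in 1 fit (SMAD2 and TGFBR1 under miR-145, TGFBI under genistein). It became 0 with median centring, with other treatments subtracted and with no filter. Leaving out 1 array gave 0 to 4 calls over treatments, 7 to 9 size calls and, for the 35 level calls, 29 to 44. The 35 level calls were 28 to 38 under the other alternatives, with 28 when the 3 PC3 controls were averaged. No direction of a called value reversed, and the causes were not tested. Pathway genes called by size went from 41 to 16 with normexp and loess. No paired analysis was possible because the labels give no replicate numbers, beyond the pairing of treated and control RNA of 1 line that each ratio already holds, and line as a block was not run. Signal over background limits TGFBR1, the dim TGFBR2 probe, SMAD4 in FaDu and 5 genes in LNCap.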
